A study of Homo sapiens with 6 samples.

Results

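The genes described here encode the proteins of the mitochondrial ribosome that carry the names MRPL or MRPS, followed by a number and in some cases a letter. Members were taken by that spelling from the gene symbols of the authors' normalized table, which gave 78 of 23026 genes, 49 named MRPL for the large subunit and 29 named MRPS for the small subunit. They were measured by stranded mRNA sequencing in T98G, a human glioblastoma cell line, after lentiviral transduction and puromycin selection with a control short hairpin RNA (shControl, 3 libraries) or with 1 directed against the kinase DYRK1A (shDYRK1A, 3 libraries). Both groups went through the same transduction, selection and recovery in the same medium, and an equal number of T98G cells of each had been mixed with a fixed number of Drosophila Kc167 cells before RNA extraction, so that fly reads could set an external scale. The labels name the libraries 1A, 1B and 1C in each group and do not say whether these were separate transductions, so the p-values measure the spread between these libraries, which may be in part technical.

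Mitochondria keep their own ribosome, which makes the few membrane subunits of the respiratory chain that the mitochondrial genome still encodes. All of its proteins are encoded in the nucleus, made on cytosolic ribosomes and imported, and they assemble on ribosomal RNAs transcribed inside the organelle. A part of these proteins descends from bacterial ribosomal proteins, and the rest was added during the evolution of mitochondria and has no bacterial counterpart. The study's promoter work concerned a palindromic element at genes for cytosolic ribosomal proteins, and the promoters of the mitochondrial set were therefore read for the same element.

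Gene counts summed to between 33708297 and 42154438 per library, the lowest total belonging to shDYRK1A 1B, which also had the largest share of unmapped reads (15.6%, against 8.44 to 11.9% in the others) and lay apart on the second principal component. In normalized counts, that is raw counts divided by the spike-in size factor, DYRK1A (ENSG00000157540), the target of the hairpin, had 2227, 2234 and 1895 normalized counts in the shControl libraries against 1482, 1056 and 1285 in the shDYRK1A libraries. Its log2 fold change was -0.73 (SE 0.15, adjusted p 5.33e-06) with spike-in scaling and -0.34 (adjusted p 0.000591) relative to the other human genes. Of 12 markers listed for glioma and astrocyte lines, 5 exceeded 10 CPM (VIM, CD44, FN1, SOX9 and SLC1A3), while GFAP, S100B, SOX2, AQP4 and ALDH1L1 were each below 1 CPM. Of 12 markers of neurons, oligodendrocytes, blood, endothelium and epithelium, 0 exceeded 10 CPM and 8 were below 1 CPM, and together they summed to 638 to 812 normalized counts in shControl and 409 to 531 in shDYRK1A.

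A normalized count here is the raw count divided by the library's spike-in size factor, so it compares levels per T98G cell as far as the mixing of the cells was exact. Where 3 values of a group are given, they stand in the order 1A, 1B, 1C. Fold changes were computed on this scale (spike-in scaling), on which most of the transcriptome fell, and again after TMM scaling, which sets each gene against the other human genes. In mRNA of a whole culture, a smaller number of cells contributing RNA and less RNA per cell cannot be told apart.

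Among members expressed well enough to be tested, 39 genes fell on the spike-in scale and none rose, whereas genes of both directions were called once all genes were scaled against each other. The filter of a mean above 10 CPM kept 71 of the 78 members, 45 MRPL and 26 MRPS. With spike-in scaling 39 of the 71 were lower in shDYRK1A at an adjusted p below 0.05 (edgeR's quasi-likelihood test with Benjamini-Hochberg adjustment over 9697 genes), which is 54.9% against 63.4% of all genes tested. None of the 71 was higher by the same test, where 1.08% of all genes were, and 0 members had a positive fold change at an unadjusted p below 0.05 (DESeq2's Wald test also called 0 higher). By class, 24 of 45 MRPL genes (53.3%) and 15 of 26 MRPS genes (57.7%) were lower. The median log2 fold change was -0.31 for MRPL and -0.35 for MRPS, while the median over all genes tested was -0.40. After TMM scaling 15 members were lower and 19 higher, or 21.1% and 26.8%, against 28.6% and 27.3% of all genes tested, and the member medians moved to 0.094 for MRPL and 0.049 for MRPS. TMM scaling gave 8 lower and 12 higher MRPL genes, and 7 lower and 7 higher MRPS genes. All 15 members that were lower after TMM scaling were also among the 39 that were lower with spike-in scaling. The same held for all 2769 tested genes that were lower after TMM scaling, so this overlap is not particular to the members.

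**Figure D1:**
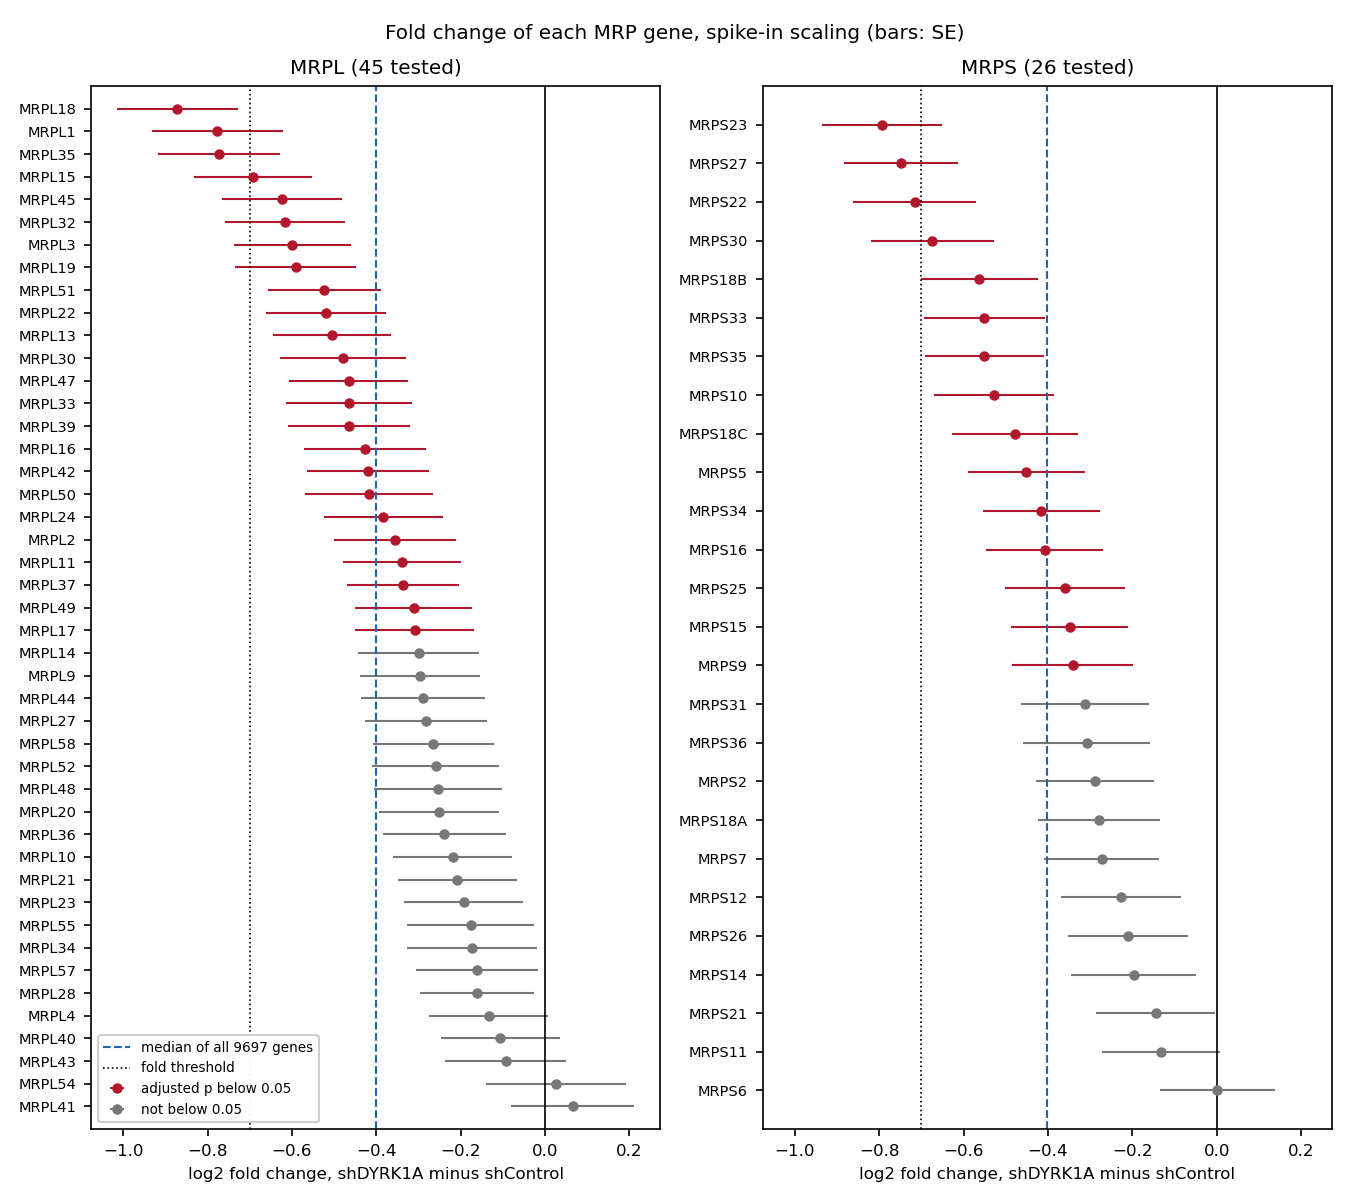
Log2 fold change (shDYRK1A minus shControl, spike-in scaling) with its standard error for the 45 tested MRPL genes on the left and the 26 tested MRPS genes on the right, red where the adjusted p was below 0.05. The points run from MRPL18 (-0.87) to MRPL41 (0.065), and 30 of the 71 lie to the left of the dashed line, the median of all genes tested (-0.40).

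The count of lower members depended on single libraries. It was 21 without shControl 1A, 23 without shDYRK1A 1C and 59 without shControl 1C. Under the TMM scale the 19 higher members became 12 without shControl 1A and 10 without shControl 1C. The shares of all genes called in these fits are not given, so the swings cannot be read as particular to the members. Without shDYRK1A 1B, 46.5% of the members and 48.1% of all genes tested were lower with spike-in scaling. In normalized counts the 3 shDYRK1A libraries lay below the 3 shControl libraries without overlap in 46 of the 71 members, against 63.6% of all genes tested.

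Summed over all 78 members, raw counts made up 0.497, 0.486 and 0.486% of the gene counts in the shControl libraries against 0.500, 0.5305 and 0.489% in the shDYRK1A libraries. The share in shDYRK1A 1B had a 95% Wilson interval of 0.528 to 0.533%, which covers counting error and no more, and those of the other libraries were of like width. This measure does not depend on the spike-in. The library shDYRK1A 1B was highest, shDYRK1A 1C lay inside the shControl range, and the groups overlapped, with 0.490 ± 0.0063% in shControl and 0.507 ± 0.0215% in shDYRK1A (SD, n = 3). In normalized counts the members summed to 238977, 232321 and 195073 in shControl and to 183189, 165684 and 162939 in shDYRK1A, and these groups did not overlap.

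Transcripts of the large and the small subunit kept nearly the same ratio. Over the tested members, the mean log2 level of MRPL genes minus that of MRPS genes was -0.25, -0.25 and -0.26 in the shControl libraries against -0.24, -0.18 and -0.23 in the shDYRK1A libraries. The 2 groups did not overlap, yet the shift between their means was 0.036 on the log2 scale and the standard deviation within shDYRK1A was 0.032. The median fold change of MRPL minus that of MRPS was 0.043 with all libraries and 0.0083 without shDYRK1A 1B. Raw counts gave 1.55, 1.53 and 1.52 MRPL counts per MRPS count in shControl and 1.54, 1.59 and 1.54 in shDYRK1A, and these ranges overlapped.

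**Figure D2:**
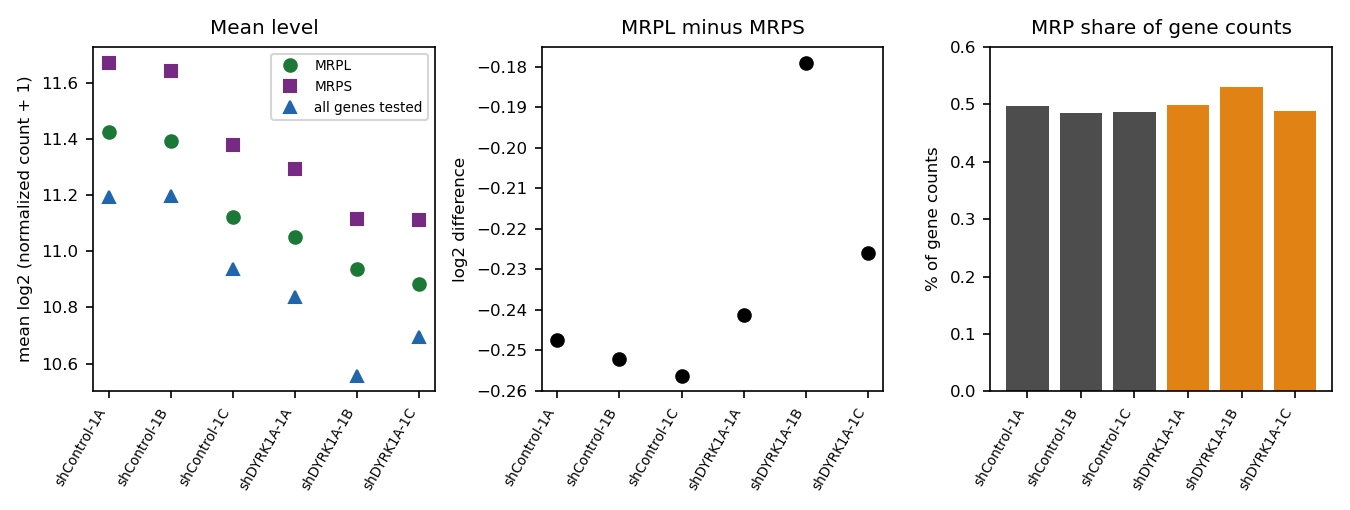
Per library, the mean log2 of normalized count + 1 of the 45 MRPL, 26 MRPS and 9697 tested genes (left), the MRPL mean minus the MRPS mean (middle, axis not starting at 0), and the percentage of gene counts that fell on the 78 members (right, grey shControl, orange shDYRK1A). All 3 means in the left panel are lower in each shDYRK1A library than in each shControl library, the middle panel spans -0.26 to -0.18, and the bar of shDYRK1A 1B is the tallest at 0.5305%.

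Library shDYRK1A 1B was the highest of the knockdown libraries in a larger share of these genes than of all genes. After TMM scaling it held the highest of the 3 shDYRK1A values in 62 of 71 members (87.3%), against 42.3% of all genes tested, and the lowest in 3. The mean log2 level of the members stood 0.30 and 0.27 above that of all genes in shDYRK1A 1A and 1C, between 0.28 and 0.32 in the shControl libraries, and 0.44 above it in shDYRK1A 1B. Without this library, 33 members (46.5%) were lower with spike-in scaling, where 48.1% of all genes were. After TMM scaling 20 were lower and 14 higher without it, against 30.2% and 28.9% of all genes. With spike-in scaling the members' median then exceeded that of all genes by 0.019 in place of 0.063. Its lower count total and its larger share of unmapped reads were given above, and their part in these values was not tested.

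**Figure D3:**
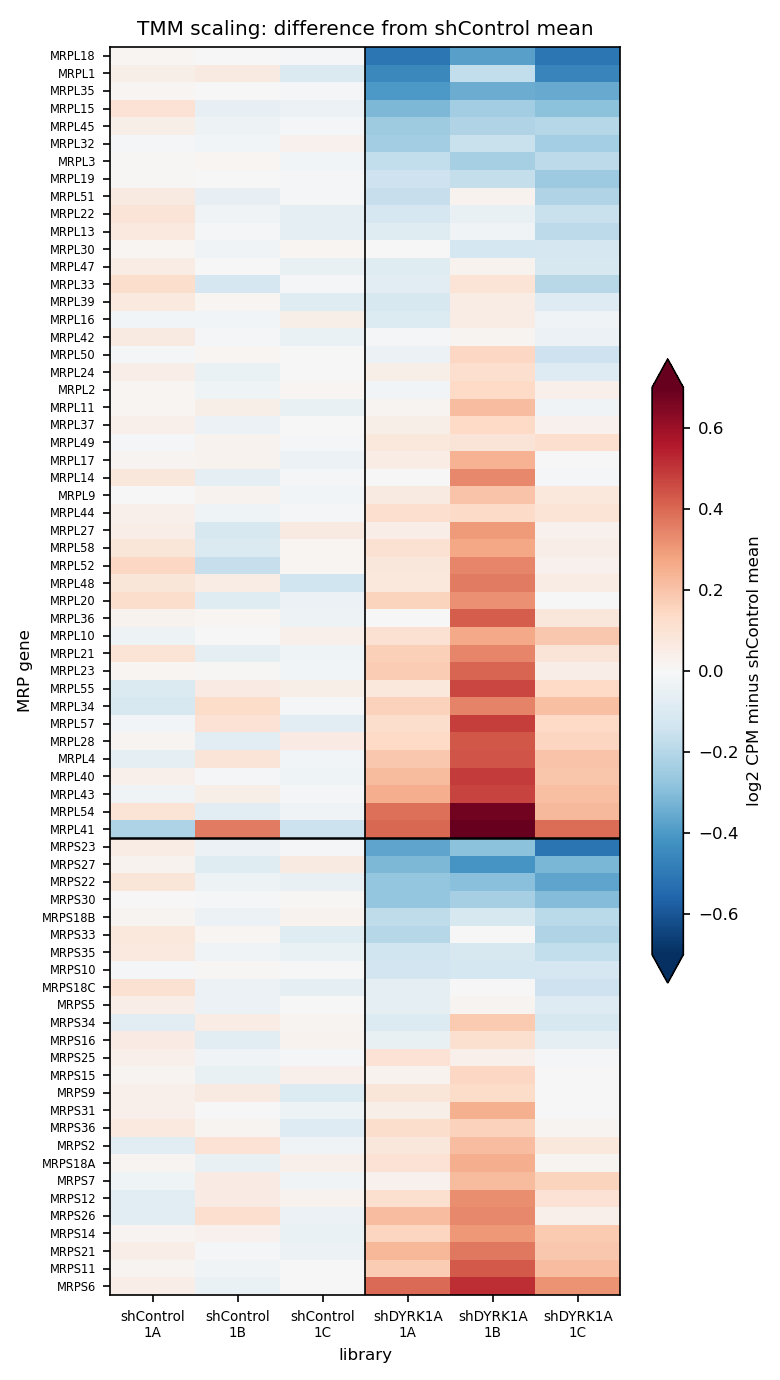
TMM-scaled log2 CPM of the 71 tested members (rows, MRPL above the line and MRPS below it, each sorted by fold change) in the 6 libraries, as the difference from the mean of the 3 shControl libraries. The column of shDYRK1A 1B is the reddest of the 3 knockdown columns, with the highest value of the 3 in 62 of 71 members, and the top rows of each block, from MRPL18 and from MRPS23 downward, are blue in all 3.

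The fold threshold of -0.7, together with an adjusted p below 0.05, was passed by 6 of the 71 members, 3 MRPL and 3 MRPS genes, against 14.3% of all genes tested. MRPL18 (ENSG00000112110, GRCh38 chr6:159789812-159798436, plus strand), whose bacterial counterpart binds the small RNA of the large subunit, had the lowest value. It had 3277, 3231 and 2690.1 normalized counts in the shControl libraries against 1797, 1608 and 1622 in the shDYRK1A libraries. The fall from 3066 ± 326 to 1676 ± 105 (SD, n = 3) amounted to -0.87 (SE 0.14, adjusted p 2.35e-08), and to -0.46 after TMM scaling (adjusted p 1.98e-05). MRPL1 (chr4:77862520-77952790, plus strand), the counterpart of the protein of the bacterial L1 stalk, had 1317, 1336 and 999 normalized counts in shControl against 734, 735 and 661 in shDYRK1A, a log2 fold change of -0.78 (SE 0.15, adjusted p 4.21e-06). MRPL35 (chr2:86199355-86213794, plus strand), also of bacterial descent, had 2823, 2797 and 2321 normalized counts in shControl against 1663, 1424 and 1558 in shDYRK1A, a change of -0.77 (SE 0.14, adjusted p 8.99e-07). In all 3 genes each shDYRK1A library lay below each shControl library, and all 3 stayed lower after TMM scaling, with a log2 fold change of -0.36 in MRPL1 (adjusted p 0.00316) and -0.37 in MRPL35 (adjusted p 6e-05). The genes were picked for low values in these same libraries, so neither observation is independent of the choice. The same separation was found in 63.6% of all genes tested, and 28.6% were lower after TMM scaling. For MRPL35 the annotation lists 4 pseudogenes, so its reads may in part have been lost to or gained from near-identical copies.

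The 3 MRPS genes past the threshold encode proteins without a bacterial counterpart. MRPS23 (ENSG00000181610, chr17:57834781-57850056, minus strand) had 4106, 3831 and 3294 normalized counts in the shControl libraries against 2409, 2093 and 1978 in the shDYRK1A libraries, a log2 fold change of -0.79 (SE 0.14, adjusted p 2.91e-07). MRPS27 (chr5:72219409-72320646, minus strand), an RNA-binding protein of the pentatricopeptide repeat family, was among the more abundant members with 8312, 7672 and 7150.2 normalized counts in shControl against 5159.9, 3962 and 4651 in shDYRK1A, and changed by -0.75 (SE 0.14, adjusted p 4.37e-07). MRPS22 (chr3:139005806-139357223, plus strand), which is mutated in an inherited disorder of mitochondrial translation, had 2594, 2381 and 1976 normalized counts in shControl against 1595, 1288 and 1348 in shDYRK1A and changed by -0.72 (SE 0.15, adjusted p 6.7e-06). None of the 3 overlapped between the groups, and after TMM scaling they were lower, at -0.39, -0.35 and -0.31 (adjusted p 0.000211, 0.000127 and 0.000678). They too were picked for low values in these same libraries, so neither observation is independent of the choice. Just outside the threshold stood MRPL15 with -0.69 (adjusted p 6.71e-06) and MRPS30 with -0.67 (adjusted p 2.4e-05), and just inside it MRPS22. Depending on which library was left out, between 4 and 9 members passed.

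At the other end were genes whose spike-in-scaled level did not pass the test in either direction. MRPL41 (ENSG00000182154, chr9:137551199-137552555, plus strand), a late-added protein of the large subunit, had 1444, 2150.4 and 1265 normalized counts in the shControl libraries against 1740.1, 1777 and 1565 in the shDYRK1A libraries, a log2 fold change of 0.065 (SE 0.15, adjusted p 0.694). Its shControl libraries spread widely, with shControl 1B above all 3 shDYRK1A libraries and the other 2 below them. MRPL54 (chr19:3762664-3768575, plus strand) had 542, 480.0 and 418 normalized counts in shControl against 519.9, 522 and 422 in shDYRK1A, a difference of 0.025 (adjusted p 0.895), and had the lowest mean count of the tested members. MRPS6 (chr21:34073224-34143034, plus strand), of bacterial descent, had 6175, 5780.5 and 5014 normalized counts in the shControl libraries against 6179, 5527 and 5286 in the shDYRK1A libraries, a difference of 0.002 (SE 0.14, adjusted p 0.99), and 9.61% of its exon bases overlap a further gene of its strand. These 3 were the members with a fold change above 0, and all 3 changed sign when 1 or another library was left out.

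Relative to the other human genes those 3 rose, together with 16 further members. These were 26.8% of the tested members, near the 27.3% of all genes tested that were higher after TMM scaling. After TMM scaling the log2 fold change was 0.48 for MRPL41 (adjusted p 0.0131), 0.43 for MRPL54 (adjusted p 0.00513) and 0.41 for MRPS6 (adjusted p 7.27e-05). In MRPL the other genes that rose were MRPL43 (0.32), MRPL40 (0.31), MRPL4 (0.28), MRPL57 (0.26), MRPL28 (0.25), MRPL34 (0.23), MRPL55 (0.23), MRPL23 (0.22), MRPL21 (0.20) and MRPL10 (0.19). In MRPS they were MRPS11 (0.28), MRPS21 (0.26), MRPS14 (0.21), MRPS26 (0.20), MRPS12 (0.18) and MRPS7 (0.14). With spike-in scaling the same genes gave values from -0.27 for MRPS7 to -0.093 for MRPL43, all negative, and 0 of them passed the test, so their direction depends on the scale. MRPS21 and MRPL57 have 8 and 5 annotated pseudogenes, and reads shared with those copies cannot be assigned to either.

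MRPS genes without a bacterial counterpart had the lowest median of the 4 combinations of class and descent, although the lowest single value was that of MRPL18, which has one. MRPS18A and MRPS18B, relatives of S18 beside MRPS18C, were left out of this comparison. Of 11 tested MRPS genes without a bacterial counterpart, 8 were lower with spike-in scaling (72.7%, against 63.4% of all genes tested) and the median was -0.55. Of 13 with a bacterial counterpart, 6 were lower (46.2%) and the median was -0.29. After TMM scaling the first group had 5 lower and 1 higher (median -0.14) and the second 1 lower and 6 higher (median 0.12), where 28.6% of all genes were lower and 27.3% higher. In MRPL the order ran the other way, with a median of -0.28 and 7 of 16 lower for genes without a bacterial counterpart, against -0.36 and 17 of 29 (58.6%) for those with one. MRPL55 (-0.18, adjusted p 0.284) was counted among those with a counterpart. That assignment is in doubt, and the MRPL counts, shares and medians were not recomputed with MRPL55 in the other group. The shares of lower genes, 43.8 to 72.7% over the 4 combinations, lay on both sides of that of all genes.

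Read within each library, the contrast hardly depends on scaling, since both groups of genes are read from the same library. The mean log2 level of MRPS genes without a counterpart, minus that of MRPS genes with one, was -0.26, -0.27 and -0.28 in the shControl libraries against -0.45, -0.51 and -0.51 in the shDYRK1A libraries. The groups differed by -0.22, against a standard deviation of 0.011 in shControl and 0.034 in shDYRK1A. For MRPL, with the doubtful MRPL55 among those with a counterpart, the same quantity was -0.22, -0.21 and -0.25 in shControl. In shDYRK1A it was -0.096, -0.073 and -0.10, a difference of 0.13 with standard deviations of 0.021 and 0.015. Neither pair of ranges overlapped. Without shDYRK1A 1B the spike-in-scaled medians were -0.50 and -0.26 in MRPS and -0.27 and -0.34 in MRPL. These values are descriptive, since descent was assigned with earlier results of the data known. The MRPS genes without a counterpart also had longer annotated exons (median 5262 bp against 2794 bp), and fold change and exon length had a Spearman rho of -0.37 over the 26 tested MRPS genes and -0.17 over 9693 tested genes with a length, in the same 6 libraries. The part of length in the contrast was not tested.

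**Figure D4:**
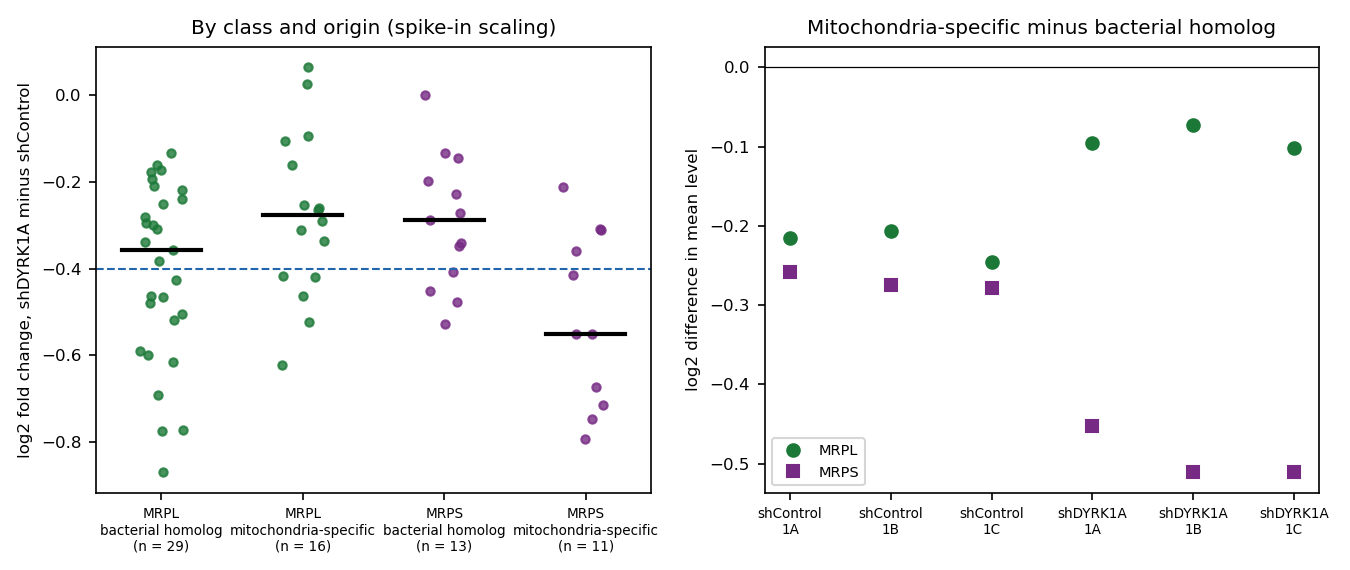
Left, log2 fold change (spike-in scaling) of each tested member by class and descent, with the median as a black bar and the median of all genes tested dashed; right, per library, the mean log2 level of genes without a bacterial counterpart minus that of genes with one. MRPS genes without a counterpart have the lowest median (-0.55), and in the right panel the squares (MRPS) drop from about -0.27 in shControl to between -0.45 and -0.51 in shDYRK1A while the circles (MRPL) rise. MRPL55, whose descent is in doubt, is drawn among the MRPL genes with a counterpart.

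Some names do not tell the place of the protein. MRPS30, next after the 3 MRPS genes past the threshold, had 2339.8, 2312 and 1972 normalized counts in the shControl libraries against 1521, 1284 and 1345 in the shDYRK1A libraries, a change of -0.67 (SE 0.15, adjusted p 2.4e-05) that was smaller but still past the test after TMM scaling (-0.27, adjusted p 0.000667). Despite its name, MRPS30 sits in the large subunit in structures of the mammalian mitoribosome, as does MRPS18A. MRPS36 was later assigned to the 2-oxoglutarate dehydrogenase complex, and its change of -0.31 missed the threshold (SE 0.15, adjusted p 0.06). Sorting the members by structure, with MRPS30 and MRPS18A in the large subunit and MRPS36 left out, gave 25 of 47 lower for the large subunit (53.2%) and 14 of 23 for the small (60.9%), against 63.4% of all genes tested. The medians were -0.31 and -0.36, both above the -0.40 of all genes. The 9 small-subunit genes without a counterpart that remained kept the median of -0.55, with 7 lower.

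The genes MRPS18A, MRPS18B and MRPS18C encode relatives of the single bacterial protein S18. MRPS18B had 5460.0, 5231 and 4592 normalized counts in the shControl libraries against 3751, 3228 and 3367 in the shDYRK1A libraries, a change of -0.56 (SE 0.14, adjusted p 0.000194), and it was the member of the trio that was also lower after TMM scaling (-0.16, adjusted p 0.00903). MRPS18C had 1990.4, 1791 and 1474 normalized counts in shControl against 1386, 1196 and 1189 in shDYRK1A and changed by -0.48 (SE 0.15, adjusted p 0.00327), a call lost without shControl 1A or shDYRK1A 1C (adjusted p 0.0828 and 0.0538). MRPS18A had 2224, 2115 and 1885 normalized counts in shControl against 1852, 1693 and 1586 in shDYRK1A, a difference of -0.28 (SE 0.14) that did not pass (adjusted p 0.0774), although its groups did not overlap. After TMM scaling neither MRPS18C (-0.070, adjusted p 0.376) nor MRPS18A (0.13, adjusted p 0.107) passed, and the difference between the 3 genes was not tested.

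The stalk that recruits translation factors to the large subunit is built from MRPL10 and MRPL12. MRPL10 had 3232, 3314 and 2843 normalized counts in the shControl libraries against 2805, 2574 and 2690.1 in the shDYRK1A libraries, a difference of -0.22 (SE 0.14, adjusted p 0.158), and rose relative to the other genes (0.19, adjusted p 0.00885). MRPL12 was under the filter with 412, 444 and 339.8 normalized counts in shControl against 419.7, 349 and 359 in shDYRK1A, and its groups overlapped. MRPL45, which ties the ribosome to the inner membrane near the exit of the peptide tunnel, had 3324, 3144 and 2696 normalized counts in the shControl libraries against 2138, 1805 and 2002 in the shDYRK1A libraries. It changed by -0.62 (SE 0.14, adjusted p 6.26e-05) and by -0.22 after TMM scaling (adjusted p 0.00207), and was the single MRPL gene without a bacterial counterpart that was lower on both scales.

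Levels per length differed widely between the members. Divided by exon length, the shControl means of the tested members ran from 134.5 to 5762 normalized counts per kb, a ratio of 42.8, with a median of 1059 for MRPL and 1187 for MRPS. The highest were MRPL51 (5762), MRPL37 (4315) and MRPS34 (3901 per kb), and the lowest were MRPL42 (134.5), MRPL48 (299) and MRPS30 (356 per kb). Exon length here is the union of all annotated exons, which lowers the value of genes with long or rarely used exons. Of these 6 genes, 5 had negative fold changes past the test with spike-in scaling, where 63.4% of all genes tested were lower. They were MRPL51 (-0.52, adjusted p 0.000356), MRPL37 (-0.34, adjusted p 0.02), MRPS34 (-0.42, adjusted p 0.00629), MRPL42 (-0.42, adjusted p 0.0078) and MRPS30. MRPL48 did not pass (-0.25, adjusted p 0.126). After TMM scaling MRPS30 kept its call, while MRPL51 (-0.11, adjusted p 0.123), MRPL42 (-0.013, adjusted p 0.85), MRPS34 (-0.0054, adjusted p 0.956) and MRPL37, now positive (0.070), were no longer lower. With spike-in scaling MRPL42 also lost its call without shControl 1A, shControl 1B or shDYRK1A 1C (adjusted p 0.1, 0.0547 and 0.0698). MRPS34 lost it without shControl 1B or shDYRK1A 1C (adjusted p 0.0788 and 0.0876), and MRPL37 without shControl 1A, shControl 1B, shDYRK1A 1B or shDYRK1A 1C (adjusted p 0.144, 0.093, 0.0706 and 0.121). Fold change and log2 mean count had a Spearman rho of -0.12 over the 71 members and -0.027 over the same 9693 genes.

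The 7 members under the filter were MRPL12, MRPL38, MRPL46, MRPL53, MRPS17, MRPS24 and MRPS28. All 7 share between 11.3 and 68.2% of their exon bases with a further gene of the same strand, whereas 3 of the 71 tested members share more than 10%. A read that falls on bases shared by 2 genes on the same strand is counted for neither as ambiguous, so the counts of these 7 may understate their transcripts. Their shControl means ran from 22.3 normalized counts for MRPS24 to 398.3 for MRPL12. MRPL53 had 159.5, 158 and 132 normalized counts in shControl against 119, 53.7 and 59.3 in shDYRK1A. MRPS17 had 260.5, 267 and 210.3 normalized counts in shControl against 178, 141 and 149 in shDYRK1A. MRPL53, MRPS17 and MRPS28 had lower values in each shDYRK1A library than in each shControl library, and the other 4 overlapped. The same separation was found in 63.6% of all genes tested.

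Promoters were read from RefSeq windows of GRCh38.p14 that run from 250 bases before to 50 after each start, which matched 69 of the 78 members. These starts can lie away from the gene bounds given above, as in MRPS22 and MRPL41. As the element of the study's promoter work was a palindrome, the members that hold the palindrome TCTCGCGAGA or its core TCTCGCG are shown first, 5′ to 3′ on the strand of the gene, with the matching letters in capitals. The palindrome was present in 1 of the 69, MRPL57 (1.4%, against 1.1% of the promoters of tested genes and 0.47% of all 27305 promoters), 57 bases before the start. Its core, searched on both strands and contained in the palindrome, was present in 4 of 69 (5.8%, against 7.3% of the promoters of tested genes). The windows are MRPL57 (chr13:21176575-21176636, plus strand), MRPS14 (chr1:175023537-175023595, minus strand), MRPS18C (chr4:83455925-83455983, plus strand) and MRPS34 (chr16:1773342-1773384, minus strand).
MRPL57: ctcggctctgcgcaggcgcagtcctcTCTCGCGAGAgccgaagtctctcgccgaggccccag
MRPS14: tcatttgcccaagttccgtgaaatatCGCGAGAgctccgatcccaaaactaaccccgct
MRPS18C: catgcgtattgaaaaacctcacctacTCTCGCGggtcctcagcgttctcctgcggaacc
MRPS34: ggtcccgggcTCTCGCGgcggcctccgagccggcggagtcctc
Of these 4 genes, MRPL57 had 2017, 2187 and 1621 normalized counts in the shControl libraries against 1753, 1852 and 1601 in the shDYRK1A libraries, a difference of -0.16 (SE 0.14, adjusted p 0.313). MRPS14 gave -0.20 (adjusted p 0.224) and did not pass. MRPS34 and MRPS18C were lower with spike-in scaling, as given above, and gave -0.0054 (adjusted p 0.956) and -0.070 after TMM scaling. The members with the core had a median of -0.31 and the other 59 tested members with a window one of -0.34.

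Letters known to be recognised by other factors of nuclear genes for mitochondria were read next, as sequence matches with no binding measured. Those of ETS factors and of YY1 were more frequent than in the promoters of tested genes. Those of NRF1 were near that share. The letters CCGGAAG, recognised by ETS factors such as GABP, were present on either strand in 29 of 69 windows (42.0%, against 21.8% of the promoters of tested genes), and 33 of the 39 sites began between 100 bases before and 10 after the start. AAGATGG, recognised by YY1, was present in 23 (33.3%, against 8.6%), and 16 of its 24 sites began after the start, all 16 on the strand of the gene. The same letters can be spelled by a start codon in its usual context, so a match there is a description of the sequence. GCGCATG, part of the element of NRF1, was present in 7 (10.1%, against 8.2%). The windows of the members that passed the fold threshold and of those with a fold change above 0 are printed from 100 bases before to 30 after the start, with all of the listed letters in capitals, to set the ends of the range beside each other. MRPL35 had no entry. They are MRPL18 (chr6:159789712-159789841, plus strand), MRPS23 (chr17:57850015-57850144, minus strand), MRPL1 (chr4:77862730-77862859, plus strand), MRPS27 (chr5:72320211-72320340, minus strand), MRPS22 (chr3:139343894-139344023, plus strand), MRPS6 (chr21:34073478-34073607, plus strand), MRPL54 (chr19:3762582-3762711, plus strand) and MRPL41 (chr9:137551779-137551908, plus strand).
MRPL18: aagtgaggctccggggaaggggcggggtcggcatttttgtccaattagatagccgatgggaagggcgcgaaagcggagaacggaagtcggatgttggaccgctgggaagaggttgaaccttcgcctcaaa
MRPS23: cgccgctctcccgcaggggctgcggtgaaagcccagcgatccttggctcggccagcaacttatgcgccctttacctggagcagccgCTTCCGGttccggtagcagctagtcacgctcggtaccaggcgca
MRPL1: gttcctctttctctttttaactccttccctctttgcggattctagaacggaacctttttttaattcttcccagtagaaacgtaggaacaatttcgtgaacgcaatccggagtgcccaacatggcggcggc
MRPS27: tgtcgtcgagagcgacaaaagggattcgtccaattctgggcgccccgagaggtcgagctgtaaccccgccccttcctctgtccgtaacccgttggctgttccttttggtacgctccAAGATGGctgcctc
MRPS22: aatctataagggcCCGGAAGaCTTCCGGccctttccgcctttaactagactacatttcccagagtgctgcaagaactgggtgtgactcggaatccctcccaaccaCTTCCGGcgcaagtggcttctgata
MRPS6: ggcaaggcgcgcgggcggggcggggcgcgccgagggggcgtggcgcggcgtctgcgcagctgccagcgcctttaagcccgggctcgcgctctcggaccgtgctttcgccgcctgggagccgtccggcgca
MRPL54: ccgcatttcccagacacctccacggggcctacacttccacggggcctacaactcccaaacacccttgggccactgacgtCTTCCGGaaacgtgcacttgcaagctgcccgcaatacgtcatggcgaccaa
MRPL41: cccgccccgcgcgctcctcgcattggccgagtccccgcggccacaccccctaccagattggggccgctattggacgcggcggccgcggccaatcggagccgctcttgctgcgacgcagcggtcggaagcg
The ETS letters stand in MRPS23 and, 3 times, in MRPS22 at the low end, and in MRPL54 at the high end. MRPS27 holds the YY1 letters, and MRPL18, MRPL1, MRPS6 and MRPL41 hold none of the listed letters in the stretch shown. Against 63.4% of all genes tested that were lower and their median of -0.40, the members with the ETS letters had a median log2 fold change of -0.31 (13 of 27 tested lower) and those without one of -0.34 (22 of 36). Those with the YY1 letters had a median of -0.42 (14 of 20 lower) and those without one of -0.31 (21 of 43). The share of lower genes with the YY1 letters, 70.0%, and their median were near those of all genes. After TMM scaling the medians with and without the YY1 letters were -0.012 and 0.10, with 6 lower and 2 higher against 7 lower and 14 higher. Of all genes tested, 28.6% were lower and 27.3% higher on that scale. Spike-in scaling applies again to the next values. The 7 members with the NRF1 letters had a median of -0.48 (6 lower) and the 56 without one of -0.32 (29 lower).

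A gene on the opposite strand, transcribed away from the member and not overlapping it, starts within 500 bp of 19 of the 78 members (24.4%), against 16.3% of 9693 tested genes. Neighbours whose start lies inside the member were not counted. In 10 of these pairs both genes were tested. With spike-in scaling the member was lower in 6 of the 10 and the neighbour in 7, near the 63.4% of all genes tested that were lower. In 4 pairs both genes were lower, and the share of such pairs among all genes was not counted. The pairs are named here after their values were seen. MRPL47 and NDUFB5, a subunit of respiratory complex I, start 36 bp apart and moved furthest from each other. NDUFB5 had 4653, 4453 and 3594 normalized counts in the shControl libraries against 1498, 1289.7 and 1322 in the shDYRK1A libraries, a log2 fold change of -1.63 (SE 0.15, adjusted p 1.93e-26), while MRPL47 had 4090.4, 3931 and 3193 normalized counts in shControl against 2926, 2598 and 2594 in shDYRK1A and changed by -0.47 (SE 0.14, adjusted p 0.00238). The call of MRPL47 was lost after TMM scaling (-0.057, adjusted p 0.371) and without shControl 1A (adjusted p 0.05). MRPL57 starts 43 bp from SKA3, a protein of the kinetochore, which fell by 0.91 on the log2 scale (adjusted p 2.65e-08), while MRPL57 did not pass the test. The palindrome in the MRPL57 window, 57 bases before its RefSeq start, also lies close to the start of SKA3. It cannot be assigned to 1 gene of this pair. MRPL27 (-0.28, adjusted p 0.0737) and EME1 (-0.69, adjusted p 1.48e-05), a subunit of a DNA endonuclease, start 6 bp apart. MRPL18 and TCP1, a subunit of the cytosolic chaperonin, start 63 bp apart and both fell (TCP1 -0.67, adjusted p 3.5e-06). In 6 of the 10 pairs the neighbour had the lower value, and the median of neighbour minus member was -0.067. The differences between the genes of a pair were not tested. MRPS11 and MRPL46, both members, start 34 bp apart, and MRPL46 was under the filter.

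**Figure D5:**
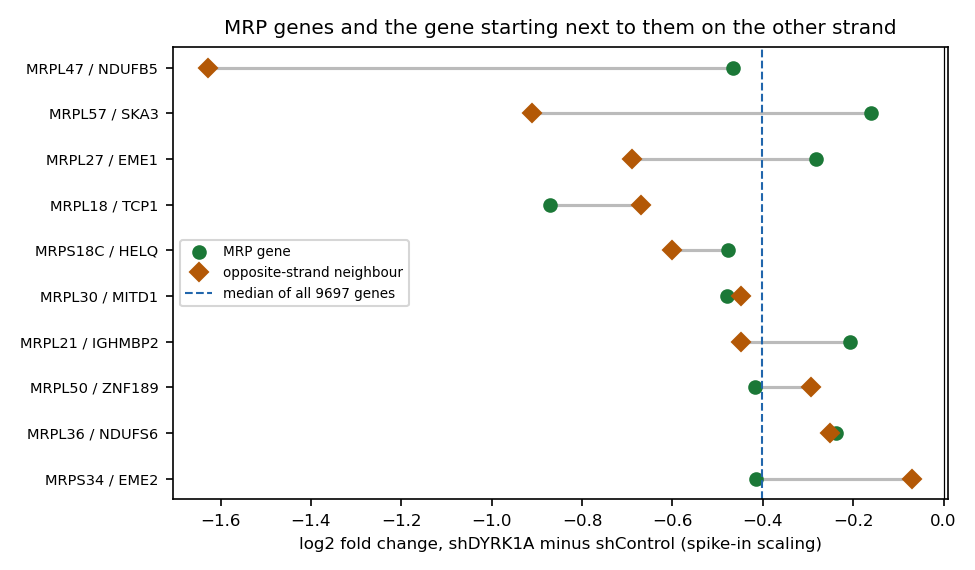
Log2 fold change (spike-in scaling) of 10 tested MRP genes (circles) and of the gene that starts within 500 bp on the opposite strand (diamonds), sorted by the neighbour. The widest pair is MRPL47 (-0.47) with NDUFB5 (-1.63), and in MRPL30 and MITD1 and in MRPL36 and NDUFS6 the points nearly coincide.

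The remaining machinery of mitochondrial translation was read from lists of named genes. Of 5 proteins of the mitoribosome that carry other names, 2 were lower with spike-in scaling, from PTCD3 (-0.51, adjusted p 0.000873), a pentatricopeptide repeat protein of the small subunit that no longer passed after TMM scaling (-0.10, adjusted p 0.0648), to AURKAIP1 (-0.14, adjusted p 0.344). Of 24 tested assembly factors 13 were lower and 0 higher (median -0.37), against 63.4% and 1.08% of all genes tested. FASTKD2, an RNA-binding protein needed for the large subunit, had the lowest value with 1710.4, 1601 and 1333 normalized counts in the shControl libraries against 998, 825 and 902 in the shDYRK1A libraries, a change of -0.77 (SE 0.15, adjusted p 4.02e-06). The highest was MRM1, a methyltransferase of the large ribosomal RNA, with -0.022 (adjusted p 0.905). After TMM scaling 2 assembly factors were lower (8.3%) and 8 higher (33.3%), against 28.6% and 27.3% of all genes.

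The list of translation factors, which also holds LRPPRC, SLIRP and OXA1L, had a lower median than the members. LRPPRC (-0.82) was among those past the fold threshold, and the list was not recomputed without these genes. Of 16 tested, 11 were lower and 0 higher (median -0.49), and 3 passed the fold threshold, against 14.3% of all genes tested. The share of lower genes, 68.8%, was near the 63.4% of all genes tested. GUF1, a GTPase related to bacterial LepA, had 1250.3, 1272 and 974 normalized counts in the shControl libraries against 598, 484 and 546 in the shDYRK1A libraries, a change of -1.10 (SE 0.16, adjusted p 8.31e-11). The highest was MTIF3, an initiation factor, with -0.059 (adjusted p 0.732). After TMM scaling 4 of the 16 were lower and 2 higher, against 28.6% and 27.3% of all genes.

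Of 5 genes for transcription of the mitochondrial genome 4 were lower, where 63.4% of all genes tested were. TFAM, which packages mitochondrial DNA and activates its promoters, had 2899.8, 3007 and 2415 normalized counts in the shControl libraries against 1177, 862 and 1118 in the shDYRK1A libraries, a change of -1.40 (SE 0.15, adjusted p 4.84e-19) that was smaller but still past the test after TMM scaling (-0.996, adjusted p 2.96e-07). POLRMT, the RNA polymerase of the organelle, gave -0.19 (adjusted p 0.238). For comparison, 61 of 75 tested genes for cytosolic ribosomal proteins were lower (81.3%, median -0.43), as were 9 of 13 protein genes of the mitochondrial genome (69.2%, median -0.32), the latter share near that of all genes. After TMM scaling 10 of the 75 cytosolic genes were lower and 6 higher, and 1 of the 13 mitochondrial genes was lower and 5 higher, against 28.6% and 27.3% of all genes.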

How the data were processed

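Messenger RNA of 6 T98G libraries, 3 shControl and 3 shDYRK1A, was sequenced after poly-A selection with a stranded kit (paired reads). The authors aligned reads with STAR to hg38 and counted them per gene; the STAR version and annotation release are not given in the sources used here. The deposited raw counts hold 58174 gene identifiers per library and no fly genes. The deposited normalized table of 23026 genes is a signal, the raw count divided by 1 size factor per library, which the authors computed from Drosophila reads (0.821 to 1.21, read back from the 2 tables). A further deposited table holds the authors' own comparison (fold changes and p-values from DESeq2) and was not used.

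Genes with a mean above 10 CPM (9697) were tested on raw counts with edgeR 4.0.16 in R 4.3.3 (robust quasi-likelihood test, group term, Benjamini-Hochberg adjustment over all genes tested), with the spike-in size factors and again with TMM factors. Standard errors were taken as fold change over the root of the F statistic. A fold threshold of 0.7 on the log2 scale follows the study. Per-library means use log2 of normalized count + 1. Wilson intervals are at 95%. Reads assigned to no gene, including unmapped ones, were left out of library totals; ambiguous reads were 3.42 to 3.59% of reads. The test was checked on simulated counts. Alternatives used DESeq2 1.42.0, other filters, scalings and the replicate letter.

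Coordinates come from GENCODE 29 (GRCh38), promoters from RefSeq (GRCh38.p14), and head-to-head neighbours without overlap were sought within 500 bp. Descent and subunit place were assigned from background knowledge. The members, lists, motifs and tests were chosen with earlier results of these data known. Genes were named by rule: the target, the 5 lowest and 5 highest tested MRPL and MRPS genes, those past the fold threshold or higher after TMM scaling, the 3 highest and 3 lowest per kb, the S18 relatives, MRPS30, MRPS36, the stalk, MRPL45, those with the palindrome or its core, those under the filter, and, from every other list, its extreme genes.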

Additional observations from a re-analysis of the deposited data

How the results depend on the processing

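With all 6 libraries, TMM and median-of-ratios scaling each gave 15 lower and 19 higher members and 0 past the fold threshold, in place of 39, 0 and 6 with spike-in scaling. These scalings set the human genes against each other, which moved the median of all genes from -0.40 to near 0. DESeq2's Wald test, the 2 other filters, the fit without robust estimation and the fit with a replicate block left all 5 counts within 1.5 times, from 37 to 49 lower members with spike-in scaling. Leaving out 1 library gave 21 to 59 lower members, 4 to 9 past the fold threshold, and after TMM scaling 13 to 20 lower and 10 to 21 higher. The share of all genes called is given above for the fit without shDYRK1A 1B alone. All 39 lower members were kept without shControl 1C or shDYRK1A 1A and 21 without shControl 1A. The members' median exceeded that of all genes by 0.012 to 0.083 under all alternatives, and the MRPL median exceeded that of MRPS by 0.0083 to 0.060, the lowest without shDYRK1A 1B, the highest without shDYRK1A 1A.

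The letters of the libraries were not taken as pairs, since same-letter deviations correlated at 0.151, 0.073 and 0.128, although each library correlated best with its own letter, which is a hint from the data and not the design. With the letter as a replicate block 37 members were lower and 0 higher with spike-in scaling, 6 passed the fold threshold, and 15 were lower and 20 higher after TMM scaling, with medians of 0.068 and 0.045 for the 2 differences above. It moved no count of calls by over 1.5 times.

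Over the 61 tested genes named by the rule or shown as head-to-head pairs, 29 turned from negative to positive under both human-gene scalings. Their log2 fold changes under TMM and under median-of-ratios scaling were, in that order, MRPL4 0.28 and 0.28, MRPL40 0.31 and 0.31, MRPL43 0.32 and 0.32, MRPS26 0.20 and 0.20, MRPS14 0.21 and 0.22, MRPS21 0.26 and 0.27, MRPS11 0.28 and 0.28, MRPL10 0.19 and 0.19, MRPL21 0.20 and 0.20, MRPL23 0.22 and 0.22, MRPL28 0.25 and 0.25, MRPL34 0.23 and 0.24, MRPL55 0.23 and 0.24, MRPL57 0.26 and 0.26, MRPS12 0.18 and 0.18, MRPS7 0.14 and 0.14, MRPL48 0.16 and 0.17, MRPL37 0.070 and 0.073, MRPS18A 0.13 and 0.13, MRPS36 0.10 and 0.10, AURKAIP1 0.27 and 0.27, MRM1 0.38 and 0.39, MTIF3 0.35 and 0.36, POLRMT 0.22 and 0.22, MRPL27 0.12 and 0.13, MRPL36 0.18 and 0.18, NDUFS6 0.16 and 0.16, ZNF189 0.11 and 0.11, EME2 0.33 and 0.33. Of the 30 called lower with spike-in scaling, after TMM scaling 10 lost the call and kept the sign, MRPL37 lost both, and 8 lost the call when 1 or another library was left out. Leaving out 1 library changed the sign of 6 named genes, whose values then ranged over MRPL54 -0.067 to 0.12, MRPL41 -0.086 to 0.32, MRPS6 -0.078 to 0.070, MRM1 -0.13 to 0.061, MTIF3 -0.19 to 0.015, EME2 -0.31 to 0.066. None of these 6 passed the test with spike-in scaling. Low counts bear mostly on the 7 members under the filter.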
